A study of Mus musculus with 6 samples.

Results

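The genes described here are the chains of the high-affinity immunoglobulin E (IgE) receptor and the receptors for immunoglobulin G (IgG) that share a signalling chain with it or counteract it. They were chosen by symbol as Fcer1a, Ms4a2, Fcer1g, Fcgr2b, Fcgr3 and Fcgr4, 6 of the 55809 gene rows counted, and all 6 were among the 16716 genes that passed the filter on low counts. They were measured in mast cells from the skin of C57BL6J mouse fetuses at embryonic day 18.5. RNA from 3 control and 3 prenatal stress pools of 4 mice each was sequenced. Dams were 8 to 10 weeks old when mated, and those of the prenatal stress group spent 3 sessions of 30 minutes a day restrained in a tube and brightly lit. The stress ran from embryonic day 13.5 to day 18.5 according to the design text and from day 13 to day 18 according to the treatment protocol. Control dams were left undisturbed, no transgene or deletion is named for either group, and offspring of both sexes were used. How many dams or litters stand behind a pool is not given in the sources used here, so the p-values cover the spread among pools.

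A mast cell binds IgE through a receptor of several chains. The alpha chain, encoded by Fcer1a, holds the antibody and has no signalling motif of its own. The beta chain, encoded by Ms4a2, amplifies the signal, and the gamma chain, encoded by Fcer1g, carries the tyrosine-based activation motif that recruits the kinase SYK. The gamma chain also serves the activating IgG receptors encoded by Fcgr3 (CD16) and Fcgr4. Fcgr2b (CD32) encodes the inhibitory IgG receptor, which acts through its own cytoplasmic motif.

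The sequences before the transcription starts of the IgE receptor chain genes are shown as a description of these genes. Whether their letters relate to the changes in level was not tested. They are from the RefSeq promoter table for GRCm38.p6, which held all 6 genes, and each ends at the outermost annotated start. The build behind the counts is not assigned in the sources used here. Capitals mark matches, on either strand, to a GATA motif (AGATAA or TGATAA, or either word with G as its last letter), to a PU.1-type motif (GAGGAA) or to TATAAA. The stretch of Fcer1a lies at chr1:173227233-173227479 on the minus strand, that of Ms4a2 at chr19:11623791-11623969 on the minus strand and that of Fcer1g at chr1:171234366-171234599 on the minus strand.
Fcer1a upstream: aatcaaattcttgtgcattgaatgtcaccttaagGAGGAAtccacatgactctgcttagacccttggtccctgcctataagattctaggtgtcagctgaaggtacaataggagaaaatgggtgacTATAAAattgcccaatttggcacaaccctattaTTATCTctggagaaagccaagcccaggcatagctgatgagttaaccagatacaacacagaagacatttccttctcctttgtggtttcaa
Ms4a2 upstream: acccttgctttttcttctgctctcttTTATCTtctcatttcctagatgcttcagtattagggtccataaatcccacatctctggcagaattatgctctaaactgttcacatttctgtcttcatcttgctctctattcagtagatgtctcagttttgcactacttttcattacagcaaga
Fcer1g upstream: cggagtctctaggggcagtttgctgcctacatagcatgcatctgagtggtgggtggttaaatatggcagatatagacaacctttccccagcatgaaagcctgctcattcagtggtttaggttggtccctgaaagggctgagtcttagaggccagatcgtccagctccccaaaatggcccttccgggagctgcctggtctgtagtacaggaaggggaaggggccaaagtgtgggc

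In Fcer1a the GATA match began 89 bases, the TATAAA match 122 bases and the GAGGAA match 213 bases before the start. The printed stretch of Ms4a2 held 1 GATA match, 153 bases before the start, and its whole window of 250 bases held 3, of which 2 lie in bases not printed because an annotated transcript covers them. The window of Fcer1g held none of these letters. Among the IgG receptor genes, the window of Fcgr4 held 1 GATA and 1 PU.1-type match, that of Fcgr3 held 1 PU.1-type match, and that of Fcgr2b held none. No base of the Fcgr3 window and only 74 bases of the Fcgr2b window lie before the outermost annotated start. The Fcgr3 match is therefore not upstream of the annotated gene. A GATA match stood in 27.1% of the 27025 promoter windows of this length, GAGGAA in 23.1% and TATAAA in 13.0%, so each is common. The printed matches do not overlap one another. The matches describe the letters in these windows and nothing about binding.

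Fcgr2b and Fcgr3 are close relatives, and the longest coding stretch that they share without a mismatch, 129 bases in GENCODE M21, is shown. A read pair that lies wholly inside it cannot be assigned to either gene. The longest such stretch in any other pair of the 6 genes was 14 bases.
coding stretch common to Fcgr2b and Fcgr3: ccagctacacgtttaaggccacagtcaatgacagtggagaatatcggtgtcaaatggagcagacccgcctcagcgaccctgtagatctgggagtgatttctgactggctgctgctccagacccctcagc
Of all 75-base words in the transcripts of Fcgr3, 5.42% also occur in Fcgr2b, and 5.43% of those of Fcgr2b occur in another gene, Fcgr3 or a transcript with shared repeats. At 150 bases the shares were 0% and 1.92%. The exons of Fcgr2b are also overlapped over 2.68% of their length by Gm38204 on the opposite strand, and the strand setting of the counting is not given in the sources used here. The levels of Fcgr2b and Fcgr3 are uncertain for these reasons. The shares are of single words and not of read pairs, so they do not measure the extent. Fcer1a, Fcer1g and Fcgr4 shared no 75-base word with another gene, and Ms4a2 shared 1.22% of its words, with Ms4a4b. Fcgr2b, Fcgr4 and Fcgr3 are neighbours on chromosome 1, Fcer1g and Fcer1a lie elsewhere on the same chromosome, and Ms4a2 lies on chromosome 19 between Ms4a6d and Ms4a3.

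The libraries held 51710555 to 74735139 counts assigned to genes, 79.7% to 81.4% of the reads tallied. In each group the replicate libraries differed by more than counting noise. The sort kept CD45+ F4/80- CD64- CD117+ ST2+ cells after a block with anti-CD16/32, an antibody to the products of Fcgr3 and Fcgr2b, and CD64 is the product of Fcgr1. Of the 13 mast cell markers listed, all were measured, 7 rose after prenatal stress and 6 did not pass. Their log2 fold changes ran from 0.20 to 2.51, with a median of 0.45. Kit, which encodes CD117, was at 1635 to 2325 CPM across the 6 libraries. Transcripts of macrophages were present in every library although the gate removed cells with F4/80 or CD64 on their surface. The 20 macrophage and monocyte markers summed to 9942 to 11427 CPM (the usual library-size unit for counts, here with TMM factors) in the controls and to 8088, 7435 and 11921 CPM in stress replicates 1, 2 and 3. Of these 20 markers 1 rose (Cd68), 1 fell (Cx3cr1) and 18 did not pass, and none was at 0. Of 6 melanocyte markers 5 rose, with summed levels of 14.3 to 20.4 CPM in the controls and 29.5 to 72.2 CPM in the stress libraries. Over all genes tested 4.34% rose and 1.85% fell. Stress replicate 3 stands apart from stress replicates 1 and 2 in its macrophage level, so for each gene named below whose call changes on omitting that library, the value without it is given. Kit is one of them, at 0.30 on the log2 scale (adjusted p = 0.0457) without stress replicate 3 and not called with all 6 libraries.

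Prenatal stress was accompanied by a higher level of the IgE-binding chain and, to a smaller extent, of the beta chain, while the gamma chain and the 3 IgG receptor genes did not pass the test. Among the 6, 2 genes rose, 4 did not pass and none fell. Among all 16716 genes 6.19% had an adjusted p under 0.05, of which the higher ones made up 4.34% and the lower ones 1.85% of the genes tested. The median log2 fold change of the 6 genes was 0.20, and that of all genes tested was -0.0039. That of the 13 mast cell markers was 0.45, and the values of Fcer1a and Ms4a2 lay within the range of these markers, 0.20 to 2.51. Mrgprb1 alone set the upper end, and the next marker was Mrgprb2 at 1.30. Fcer1a, at 2.26, thus exceeded every marker listed but Mrgprb1. Levels below are given as CPM with mean ± SD (n = 3 pools per group), and each adjusted p comes from the quasi-likelihood test of edgeR, corrected by the Benjamini-Hochberg method over all genes tested. With bulk RNA, fewer cells that carry a transcript and less of that transcript per cell cannot be told apart.

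**Figure D1:**
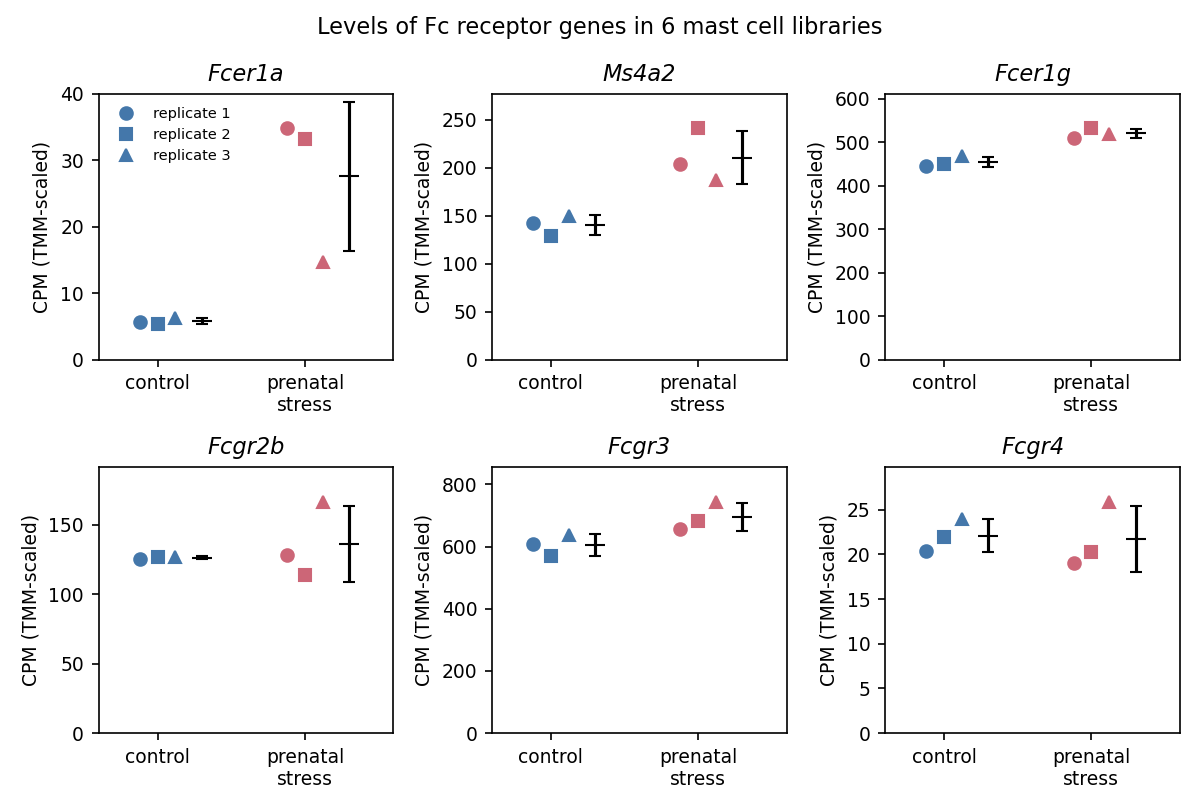
Level of each of the 6 genes (vertical axis, CPM with TMM-scaled library sizes, starting at 0) in 3 control and 3 prenatal stress libraries; marker shapes give the replicate number, and black bars the group mean ± SD. The 3 stress libraries lie above the 3 controls for Fcer1a, Ms4a2, Fcer1g and Fcgr3, and the groups overlap for Fcgr2b and Fcgr4.

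Fcer1a was at 5.67, 5.36 and 6.25 CPM in the controls, in the order of their numbers, and at 34.8, 33.2 and 14.7 CPM in the stress libraries. The controls sat close together and every stress library lay above them, with stress replicate 3 well below the other two. The mean rose from 5.76 ± 0.454 to 27.6 ± 11.2 CPM, a log2 fold change of 2.26 ± 0.29 (SE; 95% interval 1.61 to 2.91; adjusted p = 0.00666). On the linear scale this is a 4.79-fold rise, with an interval of 3.05 to 7.53. It rests on 315 to 435 counts per control library and 818 to 1791 counts per stress library. By log2 fold change it was the 29th largest increase and by p the 72nd smallest of the genes tested. The coefficient of variation was 7.89% over the controls and 40.5% over the stress libraries. In stress replicate 3 alone against the controls the log2 fold change was 1.35 (adjusted p = 0.00668), and without that library it was 2.56. The olfactory receptor genes that flank Fcer1a, Olfr1404 and Olfr418, were at 0 in all 6 libraries.

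Ms4a2, the signal-amplifying beta chain, was at 143, 129 and 149.6 CPM in the controls and at 204, 241 and 187 CPM in the stress libraries. Every stress library again lay above every control, with stress replicate 3 the lowest of the stress libraries. The mean rose from 141 ± 10.3 to 211 ± 27.9 CPM, a log2 fold change of 0.58 ± 0.10 (95% interval 0.36 to 0.81; adjusted p = 0.0152). The gene was no longer called without control replicate 2 (0.53, adjusted p = 0.0741) or with stress replicate 3 alone (0.41, adjusted p = 0.0845). Its neighbour Ms4a6d changed by -0.19 in log2 units without passing (adjusted p = 0.372).

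Fcer1g, the signalling gamma chain, varied little within each group. It was at 446, 449 and 468 CPM in the controls and at 511, 532 and 518 CPM in the stress libraries. All stress libraries lay above all controls, by a small margin. The means were 454 ± 12.2 and 520.4 ± 11.0 CPM, a log2 fold change of 0.20 ± 0.06 (95% interval 0.07 to 0.32) that did not pass (adjusted p = 0.0734). It did pass with DESeq2 (0.20, adjusted p = 0.0075). With library totals in place of TMM factors it was at 0.08, a scaling that moved the median of all genes to -0.12.

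**Figure D2:**
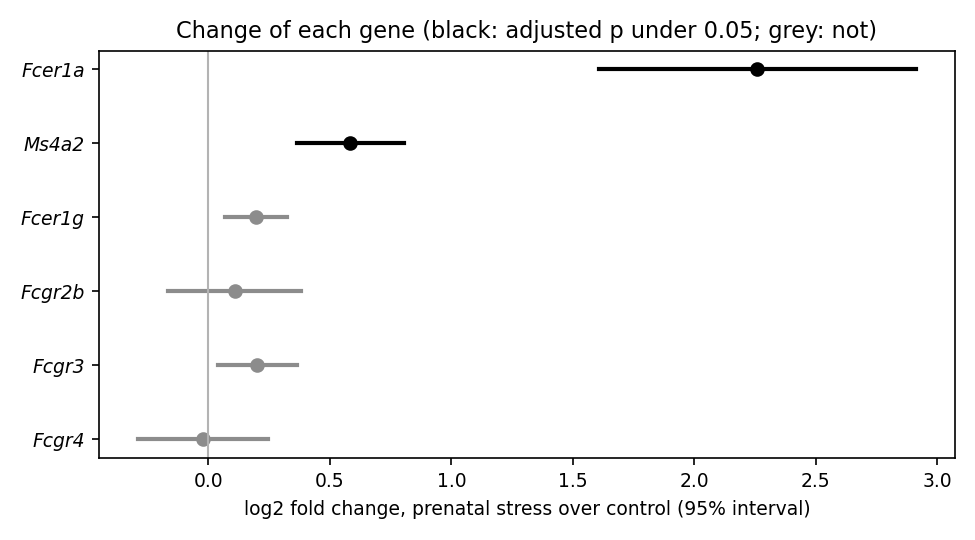
Log2 fold change of each gene, prenatal stress over control (horizontal axis), with its 95% interval from edgeR's quasi-likelihood fit; black marks an adjusted p under 0.05 and grey the others. The interval of Fcer1a, 1.61 to 2.91, lies to the right of that of Ms4a2, 0.36 to 0.81, and those of Fcgr2b and Fcgr4 include 0.

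The binding chain was set against its partner chains by the ratio of raw counts within each library, which no scaling of the libraries can alter. A change in the mix of cells in a library can alter such a ratio. An exact two-sided permutation test compared the groups. With 3 libraries against 3 its p cannot go below 0.1, and none of the 6 ratios compared could reach 0.05. The count of Fcer1a was 3.97%, 4.14% and 4.18% of that of Ms4a2 in control libraries and 17.1%, 13.8% and 7.87% in the stress libraries. The groups did not overlap, and stress replicate 3 was the nearest to the controls. The mean log2 ratio was 1.58 higher after prenatal stress, 3.00-fold (exact permutation test, p = 0.1, adjusted over the 6 ratios 0.2).

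Against the gamma chain the shift was larger. Fcer1a was at 1.27%, 1.19% and 1.33% of the count of Fcer1g among the controls and at 6.82%, 6.24% and 2.84% among the stress libraries, with no overlap. The mean log2 ratio was 1.97 higher, 3.91-fold (exact permutation test, p = 0.1, adjusted 0.2). The beta chain also stood higher relative to the gamma chain. Ms4a2 was at 32.0%, 28.8% and 31.9% of the count of Fcer1g among the controls and at 39.9%, 45.3% and 36.1% among the stress libraries, with no overlap. That difference was 0.38 on the log2 scale, 1.30-fold (exact permutation test, p = 0.1, adjusted 0.2). In these libraries the size of change ran in the order alpha, beta, gamma, at the smallest p that the design allows, which does not pass 0.05.

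**Figure D3:**
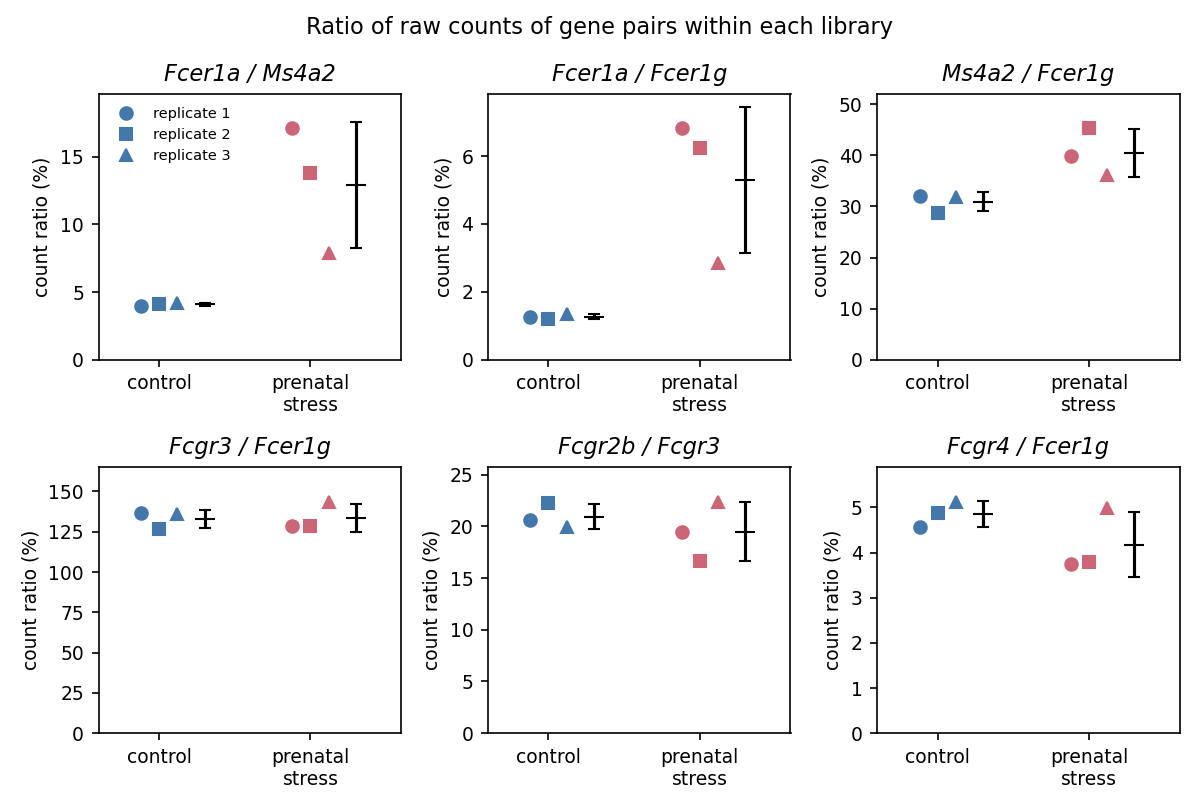
Ratio of raw counts of 6 gene pairs within each library, in percent (vertical axis, starting at 0), by group; marker shapes give the replicate number, and black bars the mean ± SD. The Fcer1a to Ms4a2 ratio is 3.97% to 4.18% for controls and 7.87% to 17.1% for the stress libraries. The ratios of Fcgr3 to Fcer1g, Fcgr2b to Fcgr3 and Fcgr4 to Fcer1g overlap between the groups.

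Per length of exon, the alpha chain was the least abundant of the receptor's transcripts in both groups. Levels of different genes are compared here as CPM per kilobase of annotated exon, with lengths from GENCODE M21. In the controls the order was Fcer1g (520.0 ± 13.9), Fcgr3 (348 ± 19.8), Ms4a2 (50.0 ± 3.65), Fcgr2b (21.8 ± 0.138), Fcgr4 (17.6 ± 1.47) and Fcer1a (5.77 ± 0.455). No neighbours in this order came within their SDs of each other. In the stress libraries Fcer1g (595 ± 12.6), Fcgr3 (400.4 ± 25.6) and Ms4a2 (74.9 ± 9.90) kept the same places. Behind them stood Fcer1a (27.7 ± 11.2), Fcgr2b (23.5 ± 4.73) and Fcgr4 (17.3 ± 2.91). Fcer1a and Fcgr2b did not differ beyond their spread there, and the longest transcript in place of all exons puts Fcgr2b ahead, at 38.4.

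On this scale the beta chain exceeded the alpha chain 8.93-, 8.57- and 8.49-fold among the controls and 2.07-, 2.58- and 4.51-fold in the stress libraries. The gamma chain exceeded the alpha chain 89.8-, 95.7- and 85.5-fold among the controls and 16.7-, 18.3- and 40.2-fold in the stress libraries. The alpha chain transcript thus stayed below both partner chains in every library. The gamma chain exceeded the beta chain 10.4 ± 0.642-fold among the controls and 8.03 ± 0.912-fold after prenatal stress.

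**Figure D4:**
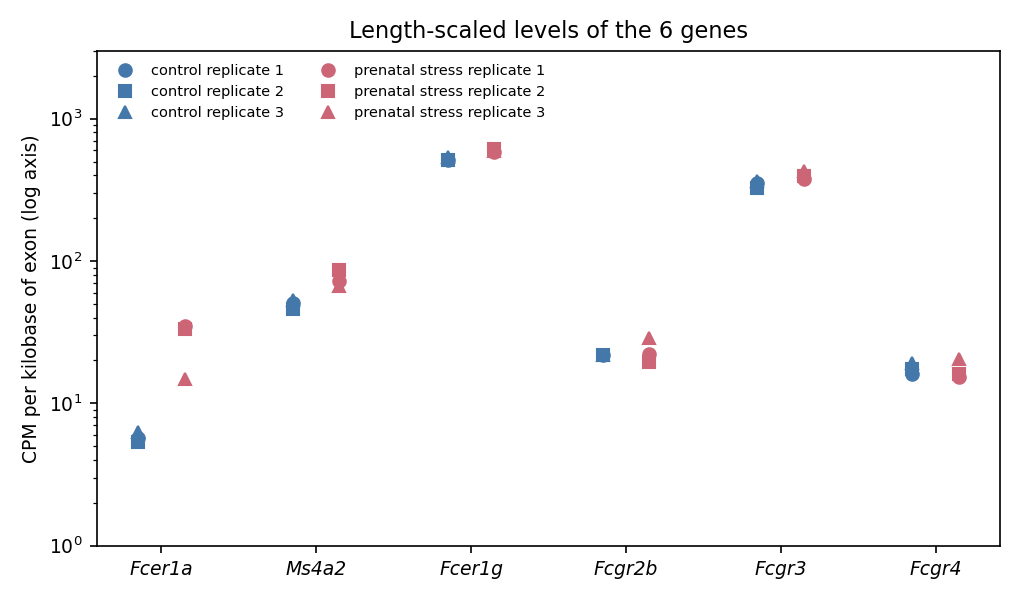
Length-scaled level of the 6 genes in each library (vertical log axis, CPM per kilobase of exon); blue points are controls and red points prenatal stress libraries, with marker shapes for the replicate number. Fcer1a is the lowest gene in the controls, at a mean of 5.77, and reaches the range of Fcgr2b and Fcgr4 in the stress libraries.

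Among the IgG receptor genes, none passed the test. Fcgr3, the activating receptor that pairs with the gamma chain, was at 609, 568 and 637 CPM in the controls and at 658, 683 and 744 CPM in the stress libraries. The stress libraries lay above the controls with TMM factors and overlapped them with library totals. The means were 605 ± 34.3 and 695 ± 44.5 CPM (log2 fold change 0.20 ± 0.07, 95% interval 0.04 to 0.36, adjusted p = 0.127). Relative to the gamma chain, Fcgr3 stood at 136.6%, 126.5% and 135.9% of the count of Fcer1g among the controls and at 128.8%, 128.4% and 143.6% among the stress libraries. This log2 ratio differed by 0.0052 between the groups (exact permutation test, p = 1).

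Fcgr2b, the inhibitory receptor, was at 126, 127 and 127 CPM in the controls and at 128, 114 and 167 CPM in the stress libraries. The controls were nearly equal, and the stress libraries lay on both sides of them. The means were 126 ± 0.797 and 136 ± 27.4 CPM (log2 fold change 0.11 ± 0.12, 95% interval -0.17 to 0.38, adjusted p = 0.626). Stress replicate 3 decides the sign of this value, which was -0.0072 with library totals. Without that library the log2 fold change was -0.07 (adjusted p = 0.529), and with that library alone against the controls 0.39 (adjusted p = 0.0447). Relative to Fcgr3, the inhibitory receptor was at 20.6%, 22.3% and 19.96% among the controls and at 19.5%, 16.6% and 22.4% among the stress libraries (log2 difference -0.11, exact permutation test, p = 0.5, adjusted 0.6).

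Fcgr4, the other activating IgG receptor and one best known from myeloid cells, was at 20.3, 21.9 and 24.0 CPM in the controls and at 19.1, 20.2 and 25.9 CPM in the stress libraries. The groups overlapped throughout. The means were 22.1 ± 1.84 and 21.7 ± 3.65 CPM (log2 fold change -0.02 ± 0.12, 95% interval -0.29 to 0.25, adjusted p = 0.931). Relative to Fcer1g it was at 4.56%, 4.88% and 5.13% among the controls and at 3.74%, 3.80% and 4.996% among the stress libraries (log2 difference -0.23, exact permutation test, p = 0.3, adjusted 0.45). Counting all 6 genes, the stress libraries lay above all controls in 4. That held for 16.0% of all genes, and for 30.6% in either direction.

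Transcripts of other cell types moved with some of these values. The mean log2 CPM of the 20 macrophage and monocyte markers was 7.81, 8.02 and 8.03 in control replicates and 7.63, 7.56 and 8.04 in stress replicates. Stress replicates 1 and 2, the lowest of the 6 on this list, had the most Fcer1a and Ms4a2. Stress replicate 3, the highest, had the most Fcgr2b, Fcgr3 and Fcgr4, genes that macrophages also express. With the list mean as a covariate in the fit, Fcer1a was at 1.72 (adjusted p = 5.67e-04) in place of 2.26, and Ms4a2 at 0.47 (adjusted p = 0.0166) in place of 0.58. With this covariate Fcer1g was at 0.20, Fcgr3 at 0.25, Fcgr2b at 0.27 and Fcgr4 at 0.14, none of them called.

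**Figure D5:**
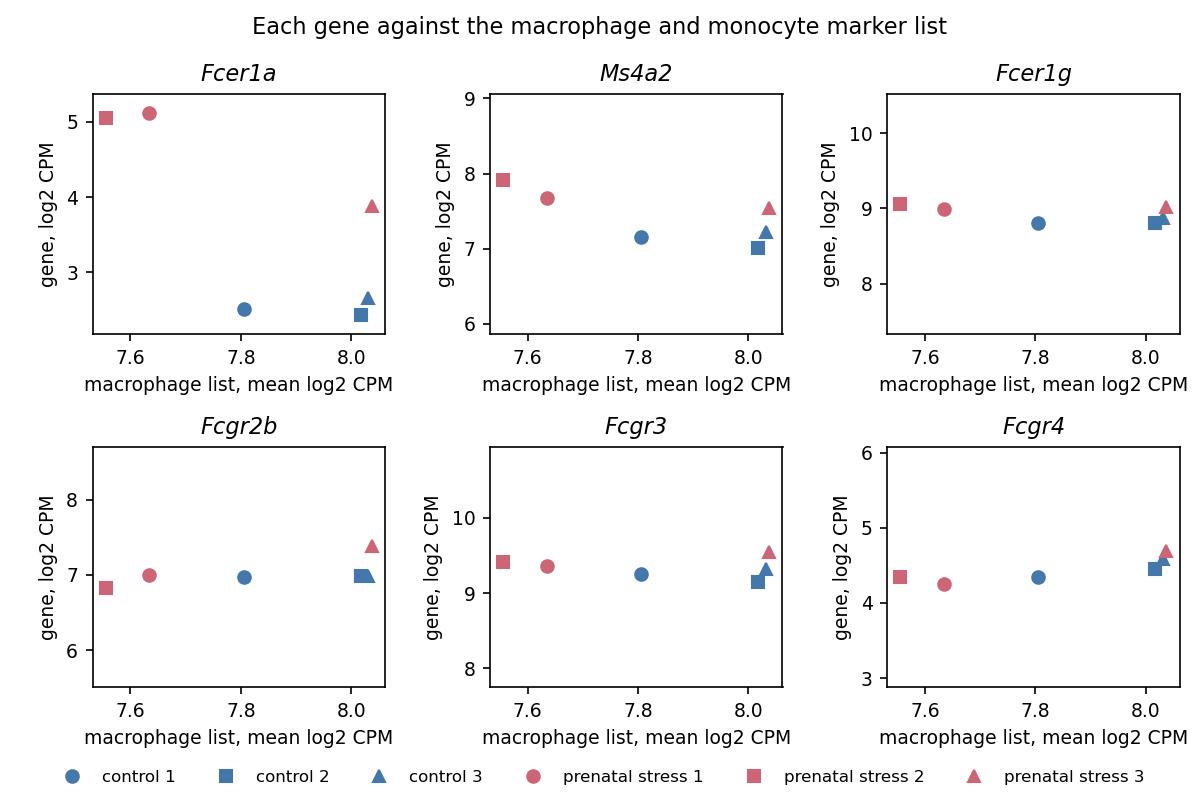
Level of each gene (vertical axes, log2 CPM, each spanning the same range) against the mean log2 CPM of 20 macrophage and monocyte markers (horizontal axes) in the 6 libraries. Stress replicate 3 lies at 8.04 on the horizontal axis, beside controls 2 and 3, and above them for each of the 6 genes.

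Basophils also carry the IgE receptor. Of the 7 basophil markers 6 were tested: 4 rose (Mcpt8, Cd200r3, Itga2 and Il3ra), none fell and 2 did not pass, and mast cells share several of them. Their sum was 567 to 676 CPM in the controls and 867 to 1067 CPM in the stress libraries, and none of those tested was at 0. Mcpt8, a protease of basophils, was at 17.2, 15.8 and 18.6 CPM in the controls and at 25.8, 24.9 and 22.2 CPM in the stress libraries (log2 fold change 0.50, adjusted p = 0.0169). Prss34, another basophil protease that some mast cells also make, was at 165, 171 and 195 CPM and at 212, 196 and 161 CPM (0.10, adjusted p = 0.601). Cebpa, the other marker that did not pass, went the opposite way, from 20.7 ± 1.64 to 15.0 ± 2.65 CPM (-0.46, adjusted p = 0.0594). Every stress library lay below every control for Cebpa. The part of basophil or melanocyte transcripts in the values of Fcer1a was not tested.

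Downstream of the receptor, some signalling genes were called and most did not pass. Of 40 genes in IgE receptor signalling, 6 rose, 2 fell and 32 did not pass, and the median log2 fold change was 0.02. Over all genes tested 4.34% rose and 1.85% fell. The groups did not overlap for 18 of the 40, beside 30.6% of all genes tested. No test of the list as a set was run. Pik3r1, the regulatory subunit of phosphoinositide 3-kinase, was at 137, 126 and 137 CPM in the controls and at 185, 185 and 177 CPM in the stress libraries (0.45 ± 0.06, adjusted p = 0.00644). Leaving out any single library did not end this call. Lcp2, which encodes the adaptor SLP-76, was at 649.6 ± 47.4 and 872 ± 33.9 CPM (0.42 ± 0.07, adjusted p = 0.0156). Its adjusted p was 0.0529 when control replicate 3 was omitted and 0.0665 when stress replicate 2 was, which ended the call. Gab2, a docking protein of the receptor, was at 125 ± 22.5 and 198 ± 10.5 CPM (0.66, adjusted p = 0.0187). Its call ended on omitting control replicate 3, stress replicate 1 or stress replicate 2, with adjusted p-values of 0.0599, 0.058 and 0.0757.

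Lat and Lat2, the membrane adaptors, were also among the genes of the signalling list that rose (0.43 and 0.40). The 2 that fell were Pik3cd, a catalytic subunit of phosphoinositide 3-kinase (-0.31), and Sh3bp2, an adaptor (-0.38), and these 4 are named after their values were seen. On omitting any library but stress replicate 3, Lat, Lat2 and Sh3bp2 were not called, and Pik3cd was called only on omitting stress replicate 1 or 3. Inpp5d, which encodes the phosphatase SHIP1 that acts below the inhibitory receptor, was at 694 ± 59.2 and 852 ± 65.2 CPM (0.30, adjusted p = 0.0747), and it was called without stress replicate 3 (0.35, adjusted p = 0.0176). Syk, the kinase that binds the gamma chain, was at 0.23 on the log2 scale (adjusted p = 0.0642), and Lyn, the kinase that phosphorylates it, 0.01 (adjusted p = 0.917), both likewise named after their values were seen. Between 1 and 18 genes of the list were called as each library was left out, the most without stress replicate 3 and the fewest without control replicate 3 or stress replicate 2, and 15 were called with DESeq2.

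Of 14 further genes for antibody-binding receptors and lectins, 6 were tested, and 1 rose, none fell and 5 did not pass, with a median of -0.20. Lgals3, which encodes the IgE-binding lectin galectin 3, was at 105, 109 and 123 CPM in the controls and at 146, 176 and 171 CPM in the stress libraries (0.55 ± 0.09, adjusted p = 0.0138). Omitting control replicate 2 (adjusted p = 0.0691) or stress replicate 2 (0.059) ended this call. Fcgr1, the high-affinity IgG receptor whose product was gated out, was at 71.7, 81.7 and 83.2 CPM in the controls and at 61.1, 61.7 and 78.0 CPM in the stress libraries (-0.24, adjusted p = 0.194). Fcrls, an Fc receptor-like gene, was at 337 ± 20.9 and 216 ± 77.4 CPM (-0.64, adjusted p = 0.0963). Fcgrt, the neonatal Fc receptor, was at 239 ± 22.7 and 176 ± 60.9 CPM (-0.44, adjusted p = 0.223). In the stress libraries Fcgr1, Fcrls and Fcgrt were highest in replicate 3, where the macrophage list was highest. On omitting stress replicate 3 all of these 3 genes were called lower, Fcgr1 at -0.37 (adjusted p = 0.00966), Fcrls at -0.97 (2.47e-04) and Fcgrt at -0.75 (0.00287). With the mean of the macrophage list as a covariate Fcgr1 was at -0.08 (adjusted p = 0.492), Fcrls at -0.35 (0.0415, called) and Fcgrt at -0.14 (0.39).

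Receptors and adaptors that carry or pair with activation motifs rose in part. Of 15 tested, 4 rose, none fell and 11 did not pass, with a median of 0.17, beside 4.34% higher and 1.85% lower over all genes tested. Clec4e, the lectin Mincle, which signals through the gamma chain, was at 56.0, 66.6 and 68.7 CPM in the controls and at 90.1, 112 and 109.6 CPM in the stress libraries (0.71 ± 0.10, adjusted p = 0.00996). Clec12b, a lectin-like receptor listed here although its own cytoplasmic motif is inhibitory, was at 15.9 ± 1.18 and 25.2 ± 2.76 CPM (0.67 ± 0.10, adjusted p = 0.00946). Neither call was lost on leaving out a single library. Pilrb1, an activating receptor, was at 11.4 ± 0.173 and 18.5 ± 3.31 CPM (0.70, adjusted p = 0.0157), and was not called on omitting control replicate 2 (adjusted p = 0.08) or control replicate 3 (0.0537). Hcst, the adaptor DAP10, was at 7.12 ± 0.838 and 9.55 ± 0.155 CPM (0.42, adjusted p = 0.0452), a call that held on omitting control replicate 1 or stress replicate 3 and ended for the other libraries (adjusted p up to 0.173). Tyrobp, which encodes DAP12, an adaptor related to the gamma chain, was at 557 ± 18.7 and 628 ± 21.6 CPM (0.17, adjusted p = 0.115).

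Among 19 inhibitory receptor genes tested, 7 rose, 2 fell and 10 did not pass, with a median of 0.16, while Fcgr2b, the inhibitory IgG receptor, did not pass. The shares over all genes tested were 4.34% higher and 1.85% lower. Pilra, the inhibitory partner of Pilrb1, was at 67.2, 61.3 and 75.1 CPM in the controls and at 124, 135 and 114 CPM in the stress libraries (0.87 ± 0.09, adjusted p = 0.00236). Lilrb4a, an immunoglobulin-like inhibitory receptor of mast cells, was at 459 ± 26.6 and 616 ± 19.4 CPM (0.42 ± 0.06, adjusted p = 0.0117). Both stayed called whichever library was omitted. Lilrb4a shares 40.3% of its 75-base words with other genes, among them its neighbouring copy, and Pilra shares 14.7% and Pilrb1 12.4%, so their values are uncertain. Cd33, a sialic acid receptor, was at 172 ± 6.53 and 219 ± 8.80 CPM (0.34, adjusted p = 0.0157), and Lair1, a collagen receptor, fell from 15.0 ± 0.812 to 11.0 ± 0.470 CPM (-0.46, adjusted p = 0.0152). The call of Cd33 ended on omitting control replicate 1, control replicate 2 or stress replicate 2, and that of Lair1 on omitting control replicate 2, control replicate 3 or stress replicate 2, with adjusted p-values up to 0.0662. Siglece, the other gene that fell, is named after its value was seen (-0.43, adjusted p = 0.0496), and was called only on omitting stress replicate 3 among the fits without a library.

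The transcription regulators reported for the IgE receptor chain genes did not pass. Of 22 tested with edgeR, 0 were called, 7 had an unadjusted p under 0.05, and 2 were called with DESeq2 and 0 with limma-voom. Over all 16716 genes tested 6.19% were called, and 4150 had an unadjusted p under 0.05. The list is too short to be told apart from those shares. Without stress replicate 3, 7 of the regulators were called, and 2647 genes in all. The median log2 fold change of the 22 regulators was -0.06. Gata2, a zinc finger factor of the mast cell lineage, was at 1386 ± 148 and 1661 ± 169 CPM (0.26, adjusted p = 0.155), and Elf1, an ETS factor, at 621 ± 52.8 and 721 ± 77.0 CPM (0.22, adjusted p = 0.201). Both were called on omitting stress replicate 3, Gata2 at 0.34 (adjusted p = 0.0387) and Elf1 at 0.30 (0.0352). In the family of Ms4a2, 12 of 22 listed genes were tested, none rose, 2 fell and 10 did not pass, with a median of -0.27. The genes that fell were Tmem176a and Tmem176b, relatives of the family that lie outside its cluster. Tmem176b went from 48.9 ± 4.38 to 29.6 ± 4.42 CPM (-0.72 ± 0.11, adjusted p = 0.0117), and Tmem176a from 21.6 ± 1.23 to 13.1 ± 2.13 CPM (-0.72 ± 0.11, adjusted p = 0.0126). On omitting control replicate 2 both calls ended (adjusted p = 0.0561 and 0.0624). The most expressed family members, Ms4a6c and Ms4a6b, had log2 fold changes of -0.20 and -0.28 and did not pass, but on omitting stress replicate 3 they were called at -0.36 and -0.44 (adjusted p = 0.0133 and 0.00576). Ms4a6c was at 196, 198 and 262 CPM and Ms4a6b at 127, 113 and 160 CPM in the stress libraries. Both were thus highest in stress replicate 3, where the macrophage list was highest. The part of macrophage transcripts in the family's values was not tested.

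The genes whose levels followed Fcer1a most closely were found by Pearson's r of log2 CPM over the 6 libraries, among 10006 genes with a mean of at least 5 CPM. The r describes 6 points that fall into 2 groups and share their libraries, so it carries no p. They were Il4 (r = 0.998), Lmbrd2 (0.995), Atf2 (0.994), Gm20559 (0.993) and Siglecf (0.991). Il4, the type 2 cytokine interleukin 4, was at 69.9, 66.3 and 68.8 CPM in the controls and at 121.5, 121.2 and 91.6 CPM in the stress libraries. As with Fcer1a, stress replicates 1 and 2 were nearly equal and stress replicate 3 lay between them and the controls. Il4 rose by 0.71 ± 0.10 on the log2 scale (adjusted p = 0.00996), a call that omitting control replicate 2 ended (adjusted p = 0.0561).

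Siglecf, an inhibitory sialic acid receptor, went from 14.1 ± 0.711 to 20.7 ± 3.18 CPM (0.55, adjusted p = 0.0283). Its call held in 1 of the 6 fits that left out a library, the fit without stress replicate 3. Gm20559 was also called (0.45, adjusted p = 0.0175), but 7.26% of its 75-base words occur in other genes, and its call held only on omitting control replicate 1 or stress replicate 3. Lmbrd2 (0.13, adjusted p = 0.162) and Atf2 (0.07, adjusted p = 0.428) were also highest in stress replicates 1 and 2, with small differences, and did not pass. Of the partner chains, Ms4a2 had an r of 0.956 with Fcer1a and Fcer1g 0.917. Fcgr3 was at 0.639, Fcgr2b at -0.07 and Fcgr4 at -0.39.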

How the data were processed

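Polyadenylated RNA of sorted fetal skin mast cells was sequenced from stranded paired-end libraries, per the labels' protocols. The authors deposited raw read counts per gene symbol, 1 table per library. The tools FastQC, STAR 2.4 and HTSeq 0.9.1 appear, beside the build names mm10 and GRCm39 without a stated role, in the submitters' processing notes. Annotation release, strand setting and filters: not given in the sources used here. The 5 rows that name no gene were left out, and the reads assigned to genes were 79.7% to 81.4% of those tallied.

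Genes were filtered with filterByExpr (minimum count 10) and scaled with TMM, and stress was tested against control with edgeR 4.0.16 (glmQLFit, glmQLFTest; R 4.3.3) with no covariate, adjusted by Benjamini-Hochberg at 0.05. Its common biological coefficient of variation came to 10.4%. Log2 CPM used a prior count of 2. The SE is the log2 fold change divided by the root of F. The fit was tested on simulated data. There it called 5 of 50 genes changed 1.25-fold, 21 of 49 changed 1.5-fold and 46 of 49 changed 4-fold. Of its 110 calls 7 were false. A gene that did not pass may therefore have changed by a small fold. Count ratios were compared by exact two-sided permutation tests. Exon lengths, neighbours, shared words and promoter motifs were computed with Python 3.11.15 from GENCODE M21 and RefSeq tables.

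The members and lists were chosen with earlier results of these data known. The genes named are the 6 members, the 5 sort markers, the 4 or fewer called genes of smallest p and the 2 most expressed of each list, and the 5 genes most like Fcer1a. A gene that this rule names is not reported here. Alternatives included upper-quartile and RLE factors, library totals, other filters, DESeq2 1.42.0, limma-voom (limma 3.58.1), the replicate number as a block, a macrophage covariate, stress replicate 3 alone, each library left out, 1 count added to ratios, and the longest transcript.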

Additional observations from a re-analysis of the deposited data

How the results depend on the processing

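The total of 1035 called genes, 70.0% of them higher, became 2085 with library totals (26.5% higher), 1933 without a filter, 1989 with DESeq2 and 171 with stress replicate 3 alone, where a lone library is assumed to vary like the controls; leaving out a library gave 196 to 2647, the highest without stress replicate 3 and the lowest without stress replicate 2. Fcer1a stayed called in all 16 alternative fits (1.35 to 2.56; leaving out a library 2.05 to 2.56, adjusted p up to 0.0418). Ms4a2 stayed called in 14, and was at 0.41 with stress replicate 3 alone and 0.47 to 0.66 with a library left out, not called without control replicate 2. Fcer1g was called only with DESeq2 (0.20), and gave 0.17 to 0.22 with a library left out. Fcgr2b turned to -0.0072 with library totals, was at 0.39 with stress replicate 3 alone (called), and gave -0.068 to 0.22 with a library left out. Fcgr3 was called in none (0.09 to 0.30). Fcgr4, also called in none, turned to 0.14 with the macrophage covariate and 0.23 with stress replicate 3 alone, and gave -0.17 to 0.057 with a library left out. With a library left out, the log2 count ratios, stress minus control, were 1.35 to 1.91 for Fcer1a/Ms4a2, 1.74 to 2.37 for Fcer1a/Fcer1g, 0.30 to 0.46 for Ms4a2/Fcer1g, -0.22 to -0.0029 for Fcgr2b/Fcgr3 and -0.36 to -0.16 for Fcgr4/Fcer1g, while Fcgr3/Fcer1g turned negative without control replicate 2 (-0.030) or stress replicate 3 (-0.048).

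With the macrophage covariate, the called genes were 5 in the signalling list, 2 among other antibody-binding receptors and 1 among the regulators. With a library left out they were 1 to 18 in the signalling list, 0 to 4 among other antibody-binding receptors, 2 to 6 among activation motif genes, 2 to 12 among inhibitory receptors, 0 to 7 among regulators and 0 to 8 in the Ms4a family. The longest transcript gave Ms4a2 58.8 and 88.1 CPM per kilobase (control, stress), Fcer1g 665 and 762, Fcgr2b 35.7 and 38.4, and Fcgr3 449 and 516. For the other 39 named genes with alternatives, 501 of the alternative values kept direction and call, 102 lost the call, 18 gained it and 3 turned: Atf2 (-0.050, library totals), Fcgrt (0.024) and Ms4a6c (0.052, both stress replicate 3 alone). The cause of these shifts was not tested.

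Same-numbered libraries deviated with correlations of 0.14, -0.14 and 0.03, and not every library correlated best with its own number. These are deviations from means of 3 libraries, so they cannot decide whether the numbers pair the samples. With the replicate block 622 genes were called, Fcer1a was at 2.18, Ms4a2 at 0.58 (adjusted p = 0.037), and no call among the 6 genes changed; the paired ratio tests gave p = 0.25 for the 3 ratios of the IgE receptor chains, the smallest that 3 pairs allow in an exact sign-flip permutation test.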
